A study of Mus musculus with 6 samples.

Results

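Polycomb group proteins hold developmental genes silent in embryonic stem cells. Polycomb repressive complex 2 (PRC2) methylates lysine 27 of histone H3, and Polycomb repressive complex 1 (PRC1) ubiquitinates histone H2A and compacts chromatin. Canonical PRC1 reads the methyl mark through its CBX subunits, variant PRC1 is brought to CpG islands by other subunits, and KDM6 enzymes remove the mark. The 31 genes described here encode subunits and close cofactors of these complexes, together with the demethylase Kdm6b. They were chosen by gene symbol from the 24421 genes of the deposited RNA sequencing table, and all 31 symbols were found in it.

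The cells were E14 mouse embryonic stem cells, kept in serum medium with leukemia inhibitory factor plus CHIR99021, which inhibits GSK3, and PD0325901, which inhibits MEK. All were exposed for 15 h to 10 µM paraquat, a compound that generates superoxide by redox cycling. Polyadenylated RNA was sequenced from wild-type cells (n = 2 libraries) and from Pml-/- cells, which lack a working gene for the scaffold of PML nuclear bodies (n = 2 libraries). With no untreated library in the table, the comparison asks how the genotypes differ under paraquat and not how either responds to it. The 2 samples of proximity-labelled PML chromatin in the series were not analysed here. How the knockout line was made was not given, nor whether it is 1 clone, nor whether replicate libraries had separate cultures. P-values therefore measure only the spread between these libraries, which may be technical.

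Depth was 31384794 to 44130093 reads counted in genes per library, so that each member had between 168 and 27768 reads in a library. Pml itself stood at 238 and 228 CPM (reads per 1000000 reads counted in genes) in wild type and at 78.7 and 89.7 CPM in knockout cells (limma, adjusted p = 4.43e-10). The Y-linked gene Uty, whose protein is related to the H3K27 demethylases, stood at 36.0 and 32.1 CPM in wild-type cells, against 0.71 and 1.03 CPM in knockout cells. Loss of Pml and loss of Y-linked expression cannot be told apart in this design. The library kit entry of wild-type library 2 names a DNA kit alone, where the other 3 entries name an RNA kit, and the part of this in the results was not tested. The 12 markers of naive pluripotent cells summed to 7201 to 7302 CPM in wild type and 7402 to 7519 CPM in the knockout. Of these, Tfcp2l1 was called higher and Zfp42 lower, against 1.95% and 3.45% of all tested genes. An unadjusted limma p under 0.05 was found for 8 of the 12, against 19.3% of all tested genes. Both knockout libraries lay above both wild-type libraries for 6 of the 12 and below them for 3, against 23.8% and 25.5%. Lists for other cell types were low, and groups overlapped in the summed level of primitive endoderm and trophoblast markers. The 8 fibroblast markers summed to 13.7 to 15.7 CPM over all libraries, with 5 of them under 0.5 CPM throughout and Dcn without a read. In the primed epiblast list, at 280 to 290 CPM in wild type and 262 to 270 CPM in the knockout, Pou3f1 and Zic2 were called lower. These were 2 of its 5 tested genes, against 3.45% of all tested genes. Of the 6 genes of this list, edgeR called 2 and DESeq2 called 0. The part of these shifts in the results below was not tested. In bulk RNA, fewer cells of a type and less RNA per cell cannot be told apart.

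Most Polycomb transcripts differed little between the genotypes. All 31 members had a mean of at least 1 CPM and were tested. With limma on log2(CPM + 1) and Benjamini-Hochberg adjustment over 12710 genes, 3 passed a threshold of 0.05, and all 3 were lower in the knockout. They were Kdm6b, the accessory PRC2 subunit Jarid2 and the accessory PRC2 subunit Phf19. Over all tested genes 3.45% were called lower and 1.95% higher, or 5.41% in either direction, against 9.68% (3 of 31) and 0 of the members. The count of 3 was 1 without wild-type library 1 (2.37% of tested genes called lower), 1 with no filter on low values (1.17%) and 5 without wild-type library 2 (4.39%). Without knockout library 1, 1 member (Rybp) was called higher, beside 1.96% of tested genes, as it was in the fit with a replicate block, beside 3.76%. The median log2 fold change of the members (knockout minus wild type, as throughout) was -0.03, beside -0.003 over all genes tested. It was 0.01 without wild-type library 1. At an unadjusted p under 0.05 there were 12 members, or 38.7%, against 19.3% of all tested genes. In the authors' deposited table the same 3 members, and no other, had a false discovery rate under 0.05. So did 3.8% of all its 24421 genes. That share counts 5660 genes without a read, so it is not on the footing of the 12710 genes tested here.

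**Figure D1:**
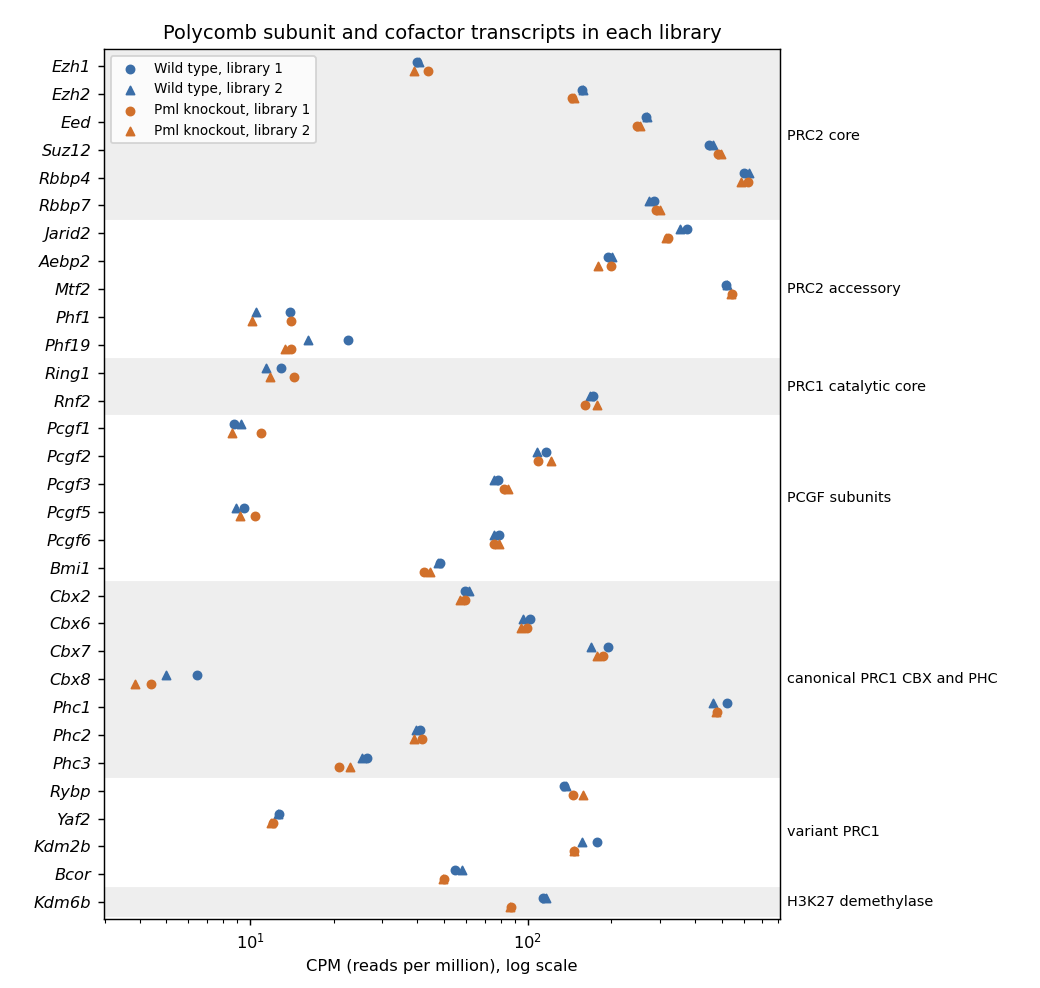
CPM of each of the 31 genes (rows, grouped by role) on a log axis, with 1 point per library, circles for library 1 and triangles for library 2, blue for wild type and orange for the Pml knockout. Blue and orange points lie close together for most genes. Both orange points lie to the left of both blue ones for 11 genes, among them Kdm6b, Jarid2 and Phf19, against 25.5% of all tested genes.

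The smallest adjusted p among the members was that of Kdm6b, which encodes a demethylase that removes trimethylation of histone H3 lysine 27. Its level was 113 and 116 CPM in the wild-type libraries and 87.4 and 86.4 CPM in the knockout libraries. The libraries of a group lay within 3 CPM of each other and the groups were far apart relative to that. Kdm6b fell from 115 ± 2.05 to 86.9 ± 0.72 CPM (SD, n = 2), 1.32-fold, with a log2 fold change of -0.40, an SE of 0.05 and a limma adjusted p of 0.000245. Its call held in each of 12 alternative fits, with a highest adjusted p of 0.00322 and log2 fold changes between -0.42 and -0.38. The authors' deposited table gives -0.40 for it, with a false discovery rate of 3.52e-08. Kdm6b lies on chromosome 11 from 69398508 to 69420367 (mm10), and the median log2 fold change of the tested genes of that chromosome was 0.01. Its X-linked paralog Kdm6a, named here for comparison, stood at 104 and 106 CPM in both groups (log2 fold change 0.0002, 95% interval -0.11 to 0.11). Among the genes of the H3K27 demethylase family, Kdm6b and the Y-linked Uty were thus lower in the knockout and Kdm6a was level within this interval.

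PRC2 is built on a core in which EZH2 or EZH1 is the methyltransferase, EED binds the product mark, SUZ12 is the scaffold, and RBBP4 or RBBP7 contacts histones. None of these 6 core genes passed the threshold. Ezh2 stood at 157 and 158 CPM in wild-type cells, against 145 and 147 CPM in knockout cells (log2 fold change -0.11, 95% interval -0.21 to -0.01, limma adjusted p = 0.211). Eed stood at 268 and 269 CPM in wild-type cells, against 248 and 255 CPM in knockout cells (log2 fold change -0.10, limma adjusted p = 0.248). For Suz12 the order was the opposite, with 449 and 467 CPM in wild-type cells, against 486 and 498 CPM in knockout cells (log2 fold change 0.10, 95% interval 0.01 to 0.19, limma adjusted p = 0.194). The groups did not overlap in these 3 genes, and each difference was at most 1.08-fold. Over the 6 core genes, both knockout libraries lay below both wild-type libraries for 2 and above them for 2. The shares of all tested genes were 25.5% and 23.8%. Ezh1, the less active methyltransferase, stood at 39.9 and 40.8 CPM against 43.8 and 39.0 CPM in the knockout. Rbbp4, a histone chaperone shared with other complexes, stood at 603 and 629 CPM against 625 and 586 CPM. Its X-linked paralog Rbbp7 stood at 286 and 275 CPM against 289 and 301 CPM. Knockout and wild-type libraries overlapped for Ezh1 and Rbbp4, and for Rbbp7 the gap between the groups was smaller than that within either of them.

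The accessory subunits decide where PRC2 binds and how active it is, and this role held both called PRC2 members. That was 2 of 5 genes, both lower, against 3.45% of all tested genes called lower. Epop, an accessory subunit outside the member list, was called higher and is described below. Jarid2, a catalytically inactive relative of the histone demethylases that helps to recruit PRC2, stood at 377 and 354 CPM in wild-type cells, against 319 and 315 CPM in knockout cells. Both knockout libraries were below both wild-type libraries, and the knockout pair was the closer. Jarid2 fell from 365 ± 16.3 to 317 ± 2.77 CPM (SD, n = 2), 1.15-fold, with a log2 fold change of -0.20, an SE of 0.05 and a limma adjusted p of 0.0159. The call was lost without wild-type library 1 (limma adjusted p = 0.217) and with no filter on low values (limma adjusted p = 0.0668), and it was kept in the other 10 alternative fits.

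Phf19, one of the Polycomb-like subunits, which bind unmethylated CpG-rich DNA and methylated H3 lysine 36, stood at 22.6 and 16.2 CPM in wild-type cells, against 14.0 and 13.4 CPM in knockout cells. Wild-type library 1 stood apart, and library 2 was near the knockout. Phf19 fell from 19.4 ± 4.49 to 13.7 ± 0.47 CPM (SD, n = 2), 1.42-fold, with a log2 fold change of -0.45, an SE of 0.12 and a limma adjusted p of 0.0467. Its difference rests largely on wild-type library 1: without it the log2 fold change was -0.23, and without wild-type library 2 it was -0.68. With a wild-type library left out, the spread between the wild-type libraries does not enter the fit. The call was lost in 7 of 12 alternative fits, including without either knockout library (limma adjusted p = 0.0805 without library 1 and 0.203 without library 2).

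The other accessory genes did not pass. Mtf2, a Polycomb-like gene, stood at 521 and 523 CPM in wild-type cells, against 547 and 542 CPM in knockout cells (log2 fold change 0.06, 95% interval -0.03 to 0.15). Phf1, the remaining Polycomb-like gene, stood at 13.9 and 10.5 CPM in wild-type cells, against 14.1 and 10.2 CPM in knockout cells. Library 1 was higher than library 2 in both groups for Phf1, and the group means were 12.2 CPM in both. Aebp2, which joins PRC2 together with Jarid2, stood at 194 and 202 CPM against 199 and 179 CPM in knockout cells (log2 fold change -0.07, 95% interval -0.18 to 0.05).

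Upstream sequence was read from RefSeq (GRCm38.p6), in which 26 of the 31 members had an entry and Kdm6b did not. The windows reach from 250 bases before to 50 bases after an annotated start. They are shown for Jarid2 and Phf19, the called members that had an entry. For Jarid2 the 250 bases before its first start site (chr13:44730524-44730773, plus strand) hold 1 GC box, written GGGCGG, and 1 CCAAT box, both in capitals.
Jarid2: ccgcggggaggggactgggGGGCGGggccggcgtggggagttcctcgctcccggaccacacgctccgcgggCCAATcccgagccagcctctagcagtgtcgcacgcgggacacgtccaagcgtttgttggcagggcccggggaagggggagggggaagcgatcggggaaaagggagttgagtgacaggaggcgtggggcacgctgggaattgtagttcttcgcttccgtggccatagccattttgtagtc
For Phf19, 30 bases of its window (chr2:34914166-34914195, minus strand) hold the E2F-type motif TTTCCCGC on the opposite strand, in capitals. The annotated span of the gene extends past this window, so that another transcript may cover it.
Phf19: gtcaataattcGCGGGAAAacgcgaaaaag
Searched on both strands, the GC box was found in 68.4% of the 38 member windows, in 63.6% of the windows of tested genes and in 35.7% of all 32851 windows. The CCAAT box was found in 42.1%, 38.0% and 37.4% of these windows, and TTTCCCGC in 2 member windows (5.26%), 2.02% and 1.07%. Member windows held a median of 23.5 CpG dinucleotides, beside 20 in the windows of tested genes and 7 in all windows. A match is only a description of the letters, and binding was not measured.

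**Figure D2:**
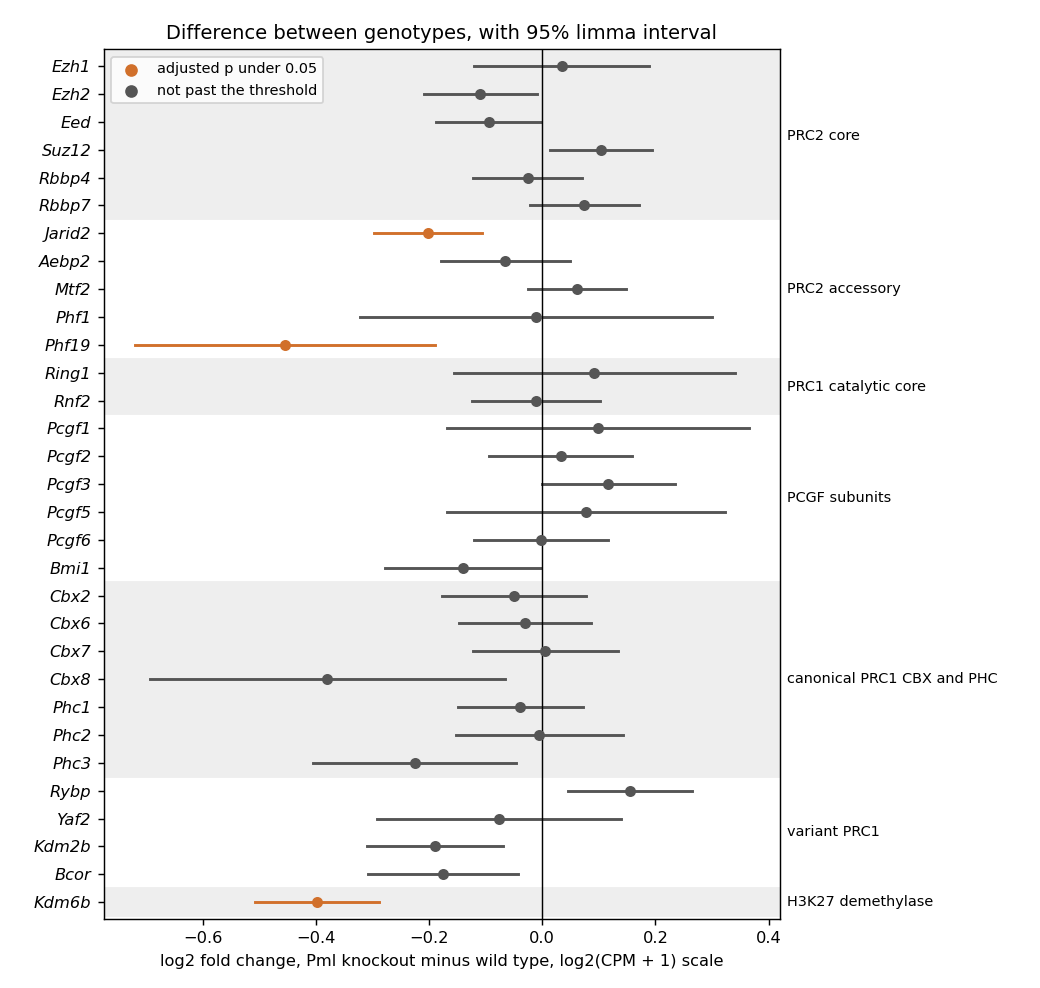
Log2 fold change (knockout minus wild type, log2(CPM + 1) scale) of each gene with its 95% limma interval, grouped by role, in orange where the adjusted p was under 0.05. Kdm6b, Jarid2 and Phf19 are orange and left of 0, and the widest intervals belong to genes with few reads such as Cbx8 and Phf1.

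RING1 and RNF2 are the alternative E3 ligases of PRC1, and each complex holds 1 of 6 PCGF proteins. None of these 8 genes was called. Rnf2, the main ligase in embryonic stem cells, stood at 173 and 168 CPM in wild-type cells, against 161 and 178 CPM in knockout cells. Ring1 stood at 12.97 and 11.4 CPM against 14.4 and 11.8 CPM. For both ligases the wild-type values lay inside or across the knockout range. Among the PCGF genes, Bmi1, of canonical PRC1, stood at 48.3 and 47.4 CPM in wild-type cells, against 42.3 and 44.4 CPM in knockout cells (log2 fold change -0.14, 95% interval -0.28 to -0.003, limma adjusted p = 0.25). Its close paralog Pcgf2 stood at 117 and 108 CPM against 109 and 121 CPM. Pcgf3, of a variant complex, stood at 78.3 and 75.5 CPM against 82.0 and 84.9 CPM (log2 fold change 0.12, limma adjusted p = 0.26). Bmi1 and Pcgf3 did not overlap between groups, while Pcgf2 did. Pcgf6, which marks a complex active at germline genes, stood at 78.8 and 75.7 CPM against 75.6 and 78.6 CPM. Pcgf1 (8.73 and 9.25 against 10.9 and 8.58 CPM) and Pcgf5 (9.53 and 8.93 against 10.4 and 9.17 CPM) define further variant complexes. Both overlapped between groups and had 274 to 417 reads per library.

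CBX proteins bind trimethylated H3 lysine 27, and PHC proteins join PRC1 complexes to one another. None of these 7 genes of canonical PRC1 passed. Cbx8 had the largest difference on the log2 scale among members that were not called. It stood at 6.44 and 4.96 CPM (202 and 219 reads) in wild type and 4.40 and 3.84 CPM (168 reads in each library) in the knockout. The groups did not overlap, but the wild-type libraries differed by more than wild-type library 2 and knockout library 1 did. The log2 fold change was -0.38 with a 95% interval of -0.69 to -0.07 (limma adjusted p = 0.164). It was -0.54 without wild-type library 2 and -0.22 without wild-type library 1. Phc3 stood at 26.3 and 25.4 CPM in wild-type cells, against 21.0 and 23.0 CPM in knockout cells (log2 fold change -0.23, 95% interval -0.40 to -0.05, limma adjusted p = 0.144). It also did not overlap between groups and was not called in any alternative fit.

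The other CBX and PHC genes were level within narrow intervals. Cbx7, the main CBX gene of undifferentiated cells, stood at 195 and 169 CPM in wild-type cells, against 186 and 178 CPM in knockout cells (log2 fold change 0.01, 95% interval -0.12 to 0.13). Cbx2, associated with compaction, stood at 59.4 and 61.3 CPM against 59.5 and 57.1 CPM (log2 fold change -0.05). Cbx6 stood at 102 and 96.4 CPM against 99.7 and 94.5 CPM (log2 fold change -0.03). Cbx2 and Cbx8 lie 5027 bases apart on chromosome 11, and Cbx6 and Cbx7 lie 81470 bases apart on chromosome 15. Phc1 stood at 523 and 464 CPM against 482 and 477 CPM, with both knockout values inside the wild-type range. Phc2 stood at 41.1 and 39.8 CPM against 41.8 and 38.9 CPM, with both wild-type values inside the knockout range.

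Variant PRC1 contains RYBP or YAF2 in place of a CBX protein, and one of its forms is tethered to CpG islands by KDM2B and holds BCOR. Kdm2b stood at 178 and 157 CPM in wild-type cells and 147 CPM in both knockout libraries. Its log2 fold change was -0.19 with a 95% interval of -0.31 to -0.07 (limma adjusted p = 0.0664), close to the threshold but not past it. It was -0.28 without wild-type library 2 and -0.10 without wild-type library 1. Bcor, on the X chromosome, stood at 54.8 and 58.2 CPM in wild-type cells, against 50.2 and 49.7 CPM in knockout cells (log2 fold change -0.17, 95% interval -0.31 to -0.04, limma adjusted p = 0.126). Both genes were lower in both knockout libraries than in either wild-type library.

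Rybp, which also stimulates the ligase, had the largest difference upwards of any member. It stood at 135 and 138 CPM in wild-type cells, against 146 and 158 CPM in knockout cells (1.12-fold, log2 fold change 0.16, 95% interval 0.05 to 0.26, limma adjusted p = 0.0975). The groups did not overlap. For Rybp the log2 fold change was 0.21 without knockout library 1 and 0.10 without knockout library 2. Its paralog Yaf2 stood at 12.7 and 12.6 CPM in wild-type cells, against 12.1 and 11.9 CPM in knockout cells (log2 fold change -0.08, limma adjusted p = 0.745), which are 399 to 558 reads per library.

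**Figure D3:**
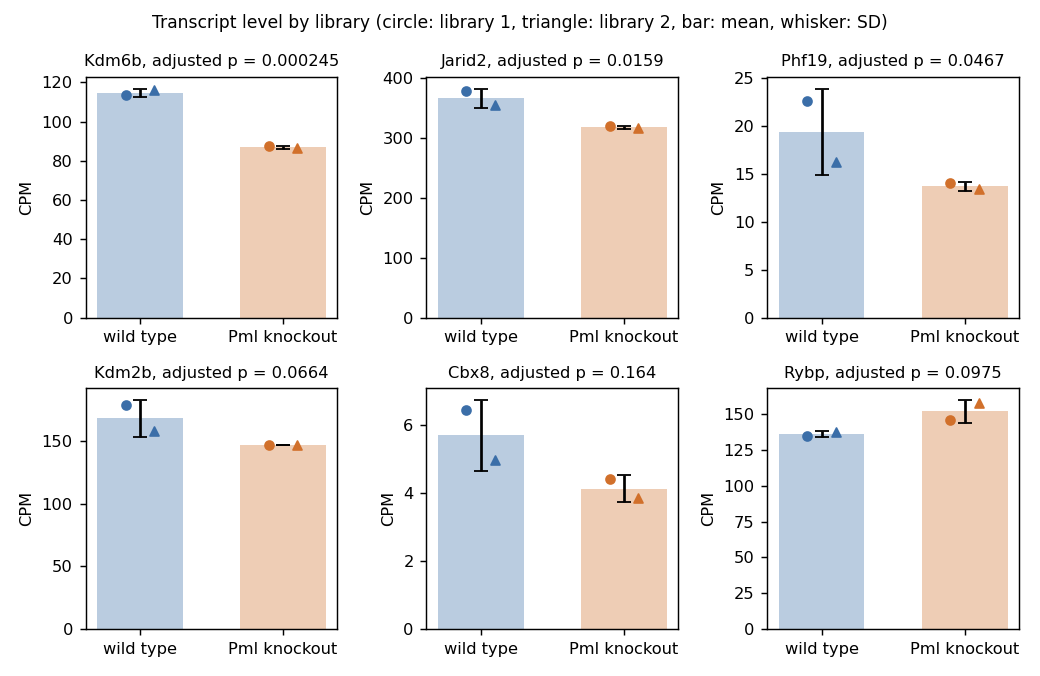
CPM of the 3 called genes (upper row) and of 3 genes that were not called (lower row), each axis starting at 0, with 1 point per library, bars at the mean and whiskers of 1 SD (n = 2 per group). The wild-type points of Kdm6b lie together at 113 and 116 CPM, while those of Phf19, Kdm2b and Cbx8 are spread, with library 1 the higher.

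**Figure D4:**
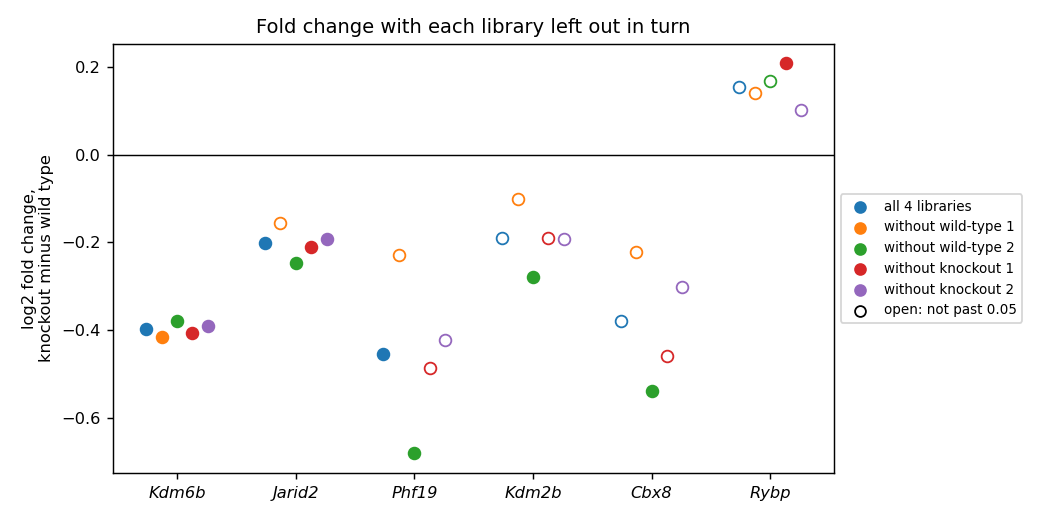
Log2 fold change of the same 6 genes from all 4 libraries and with each library left out in turn, filled where the limma adjusted p was under 0.05 and open elsewhere. Kdm6b stays filled near -0.40 throughout, and Phf19 moves between -0.23 and -0.68 depending on which wild-type library is used. With a library left out, the spread within its group is not measured.

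For the 28 members that were not called, the intervals bound the difference between these libraries, whose spread may be technical. The 95% limma interval, unadjusted for the number of genes, lay within 0.32 on the log2 scale (5/4-fold) either way for 22 of the 28 members. For 27 it lay within a 1.5-fold change, and Cbx8 was the exception. Shares of all tested genes within these bounds were not computed. Over the whole list, both knockout libraries lay below both wild-type libraries for 11 members (35.5%) and above them for 5 (16.1%), against 25.5% and 23.8% of all tested genes. In 11 members the wild-type libraries differed from each other by more than the group means did. The share of all tested genes for this was not computed, so the count is not read as a trait of the members. The members lie on 13 chromosomes, none of them on chromosome 8, whose tested genes had a median log2 fold change of -0.06. Subtracting the median of its own chromosome moved no member's log2 fold change by more than 0.03.

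Because paralogs compete for a place in the same complex, the ratio of their reads was compared within each library, where gene length cancels between genotypes. These ratios are given as a description and were not tested. The log2 ratio of Rybp to Yaf2 was 3.41 and 3.45 in wild-type cells, against 3.60 and 3.73 in knockout cells, a difference of 0.24. That of Pcgf2 to Bmi1 was 1.27 and 1.19 in wild-type cells, against 1.37 and 1.45 in knockout cells, a difference of 0.18. These pairs did not overlap between the groups and shifted toward the gene named first. Ezh2 to Ezh1 shifted the other way, from 1.97 and 1.96 in wild type to 1.72 and 1.92 in the knockout. Its difference was -0.15, and -0.05 without knockout library 1. Mtf2 to Phf19 differed by 0.54, with wild-type ratios of 4.53 and 5.01 and knockout ratios of 5.29 and 5.34. Without wild-type library 1 this difference was 0.30, and without wild-type library 2 it was 0.79. Cbx7 to Cbx8 differed by 0.46 and Phc1 to Phc3 by 0.20 (0.12 without knockout library 1), again without overlap. In these 3 pairs the second gene had lower CPM in both knockout libraries than in either wild-type library. The remaining 6 of 12 pairs overlapped, among them Rnf2 to Ring1 (difference -0.11, and 0.11 without knockout library 1) and Cbx7 to Cbx2 (difference 0.06, and -0.07 without wild-type library 2). No share was computed for ratios of other genes. Of single tested genes, 25.5% had both knockout libraries below both wild-type libraries and 23.8% had them above. A lack of overlap in 6 of 12 pairs is therefore not read as a result.

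Other genes of the Polycomb pathway were taken from lists that hold none of the members. Of 26 tested further partners of PRC1 and PRC2, 2 rose and 1 fell, against 1.95% and 3.45% of all tested genes, with a median log2 fold change of -0.03. Sfmbt2, an imprinted relative of the Polycomb protein Scm, stood at 45.5 and 48.8 CPM in wild-type cells and rose to 67.7 and 62.3 CPM in the knockout (1.38-fold). Its log2 fold change was 0.46 with an SE of 0.07 (limma adjusted p = 0.000754). Its call held in all 12 alternative fits. Epop, listed in the table as E130012A19Rik, encodes an accessory subunit of the PRC2 form that holds the Polycomb-like proteins. It stood at 538 and 587 CPM in wild-type cells and rose to 666 and 652 CPM (log2 fold change 0.23, limma adjusted p = 0.00935). The call was lost with no filter on low values (limma adjusted p = 0.0689) and without wild-type library 1 (log2 fold change 0.17). Cbx3, an HP1 protein found in the PCGF6 complex, fell from 81.9 and 87.1 CPM to 71.0 and 64.3 CPM (log2 fold change -0.32, limma adjusted p = 0.00709), a call lost without knockout library 2 (limma adjusted p = 0.0606).

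Genes that act on the opposite side were mostly level. Of 11 tested genes of PR-DUB, the enzyme that removes ubiquitin from H2A, 0 passed with limma, 0 with edgeR and 0 with DESeq2, and 1 had an unadjusted limma p under 0.05. Over all tested genes limma called 5.41%, and 19.3% had an unadjusted p under 0.05, so 0 of 11 is near the share called. Of 18 tested genes of the COMPASS complexes, which methylate lysine 4 of histone H3, 1 fell and none rose, near the 5.41% called over all tested genes. This was the methyltransferase gene Setd1b, at 51.7 and 52.5 CPM in wild-type cells, against 43.9 and 44.9 CPM in knockout cells (log2 fold change -0.23, limma adjusted p = 0.0466). Its call was lost in 8 of 12 alternative fits, among them without each library in turn (highest limma adjusted p = 0.152).

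Genes that Polycomb keeps silent in embryonic stem cells were mostly at low levels in both groups. Of 63 developmental regulators, 43 had a mean under 1 CPM and were not tested, and 25 were under 0.5 CPM in every library. Of the 20 tested, 1 fell and none rose, near the 5.41% called over all tested genes, with a median log2 fold change of -0.07. The gene that fell was Sox1, a neural transcription factor gene, from 19.2 and 20.53 CPM to 14.1 and 14.6 CPM (log2 fold change -0.44, limma adjusted p = 0.0105). Its call was lost with no filter on low values (limma adjusted p = 0.0555), and its log2 fold change was -0.38 after subtracting the median of its chromosome, 8. The summed level of the 63 genes was 133 to 134 CPM in wild type and 123 to 130 CPM in the knockout.

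Of 39 Hox genes, the classical Polycomb targets, 10 were tested and 0 passed with limma, 0 with edgeR (23 genes tested) and 0 with DESeq2, and 1 had an unadjusted limma p under 0.05. Over all tested genes limma called 5.41%, and 19.3% had an unadjusted p under 0.05. Their median log2 fold change was -0.16, beside -0.003 over all tested genes. Summed over all 39 genes, the level was 49.96 and 56.9 CPM in the wild-type libraries and 43.9 to 45.3 CPM in the knockout. For 5 of the 10 tested genes both knockout libraries lay below both wild-type libraries, and for 1 they lay above, against 25.5% and 23.8% of all tested genes. Hoxc13, the largest part of this sum, named here after its values were seen, stood at 20.0 and 23.7 CPM in wild-type cells, against 17.9 and 18.7 CPM in knockout cells (log2 fold change -0.24, limma adjusted p = 0.177). Hoxa7 was the tested gene with the opposite order, at 1.498 and 2.08 CPM in wild type and 2.52 CPM in both knockout libraries (limma adjusted p = 0.281).

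**Figure D5:**
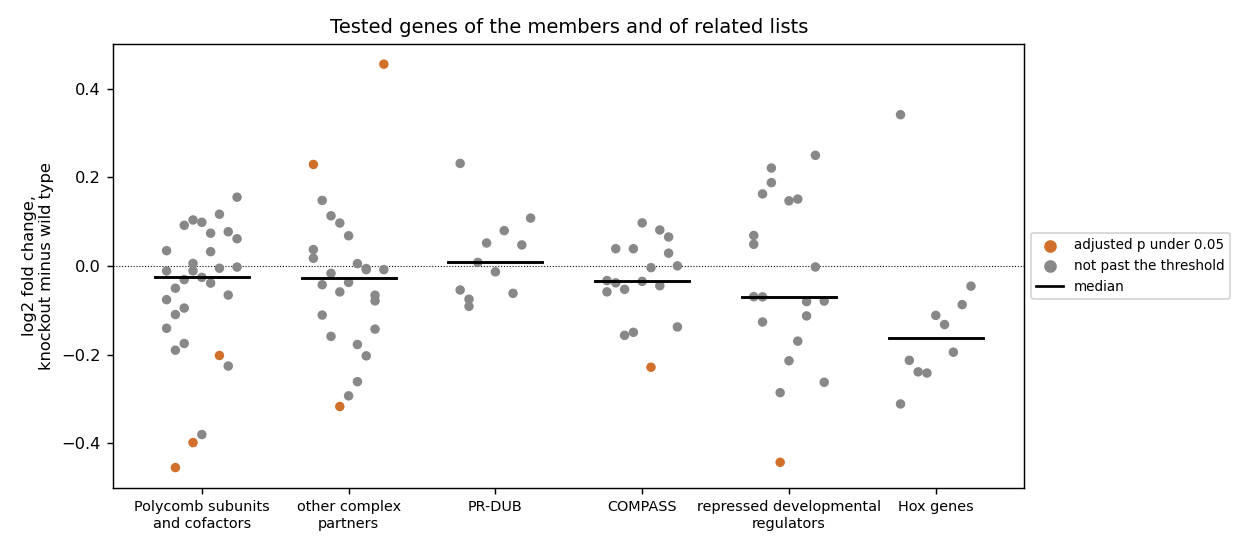
Log2 fold change (knockout minus wild type) of every tested gene of the Polycomb members and of 5 related lists, in orange where the limma adjusted p was under 0.05, with a black line at each median. Medians lie between -0.16 for the Hox genes and 0.01 for PR-DUB. The called genes above 0 are Sfmbt2 and Epop, both further complex partners, and the other called genes lie below 0.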

How the data were processed

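The authors deposited 1 table of 24421 genes with a CPM value per library and their log2 fold change (wild type over knockout, sign turned here), mean log2 CPM, their p-value and their false discovery rate. The tools named, per the submitters' processing notes, are cutadapt, TopHat and edgeR, and the build is mm10. Versions, annotation, strand use and the handling of reads that match several genes: not given in the sources used here. Levels of close paralogs may share reads.

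The CPM columns sum to 1000000. Low values were whole multiples of 1 read, and 100% of values came out whole within 0.001 reads, giving the depths in the report. Genes averaging 1 CPM or more were tested on log2(CPM + 1) by genotype, using limma's trend option (version 3.58.1 under R 4.3.3), with Benjamini-Hochberg adjustment over 12710 genes. This scale understates changes of low genes. Intervals are 95% limma intervals. Alternatives were pseudocounts of 0.25 and 4, no filter, a filter at 5 CPM, TMM scaling, edgeR (4.0.16, quasi-likelihood) and DESeq2 (1.42.0) on the recovered reads, each library left out, a replicate block, and subtraction of chromosome medians. A fit with a library left out keeps 1 library in that group, whose spread is then not measured. edgeR called 620 of 14782 genes. The test was tried on simulated data.

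Members and gene lists were chosen with earlier results of these data known. Named genes were Pml, all members, up to 4 called genes of each related list, and others as stated. Chromosomes came from RefSeq (GRCm38.p6). The table had 0 unused sample columns.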

Additional observations from a re-analysis of the deposited data

How the results depend on the processing

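Kdm6b and Pml kept their direction and call in all 12 alternative fits, and no called member changed direction in any of them. Of the 28 members that were not called, 14 changed sign in at least 1 fit without being called in it. Over all genes, 687 were called, 298 without a filter on low values, and 1198 in the fit with a replicate block. Leaving out 1 library gave 367 to 869 (367 without knockout library 2, 439 without wild-type library 1). The 3 members called lower became 1 with no filter on low values, and 1 to 5 on leaving out 1 library. Members called higher numbered 0, and 1 (Rybp) with the replicate block, and 0 to 1 on leaving out 1 library. The 5 called genes of the related lists became 2 with no filter on low values, 8 with the replicate block and 3 to 6 on leaving out 1 library. The median log2 fold change of the members ranged from -0.069 to 0.011 on leaving out 1 library. With no filter, more genes are tested and enter the adjustment and the variance trend. The cause of the changes between fits was not tested.

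The labels give both groups the replicate numbers 1 and 2 without saying that a number marks a shared batch. Across genes the difference between libraries 1 and 2 in wild type correlated with that in the knockout (r = 0.12 over 12710 genes), which does not settle a pairing. With the replicate block, Kdm2b (adjusted p = 0.0143) and Rybp (adjusted p = 0.0434) were called in addition to the 3 members. Depth was at least 168 reads for every member in every library. The lowest members, such as Cbx8, carry more counting error. The parts of read number and of library number in the precision were not tested.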
